A study of Mus musculus with 4 samples.

Results

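CHD4 intervals were examined at 6 genes that restrain or drive the cell cycle: the antiproliferative genes Btg1 and Btg2, the stress-response genes Gadd45b and Gadd45g, the inhibitor gene Cdkn2b and the kinase gene Cdk6. The genes were chosen by the peak list itself, having passed the caller's q in the CHD4 over IgG comparison and been named as the nearest gene, and every interval given to 1 of their symbols was kept. This gave 7 intervals with 10 summits, of 1849 intervals with 2066 summits that named 1517 genes in all. The list comes from a CUT&Tag experiment in cells labelled spermatogonial from C57BL/6 mice, with 2 samples treated with an antibody against CHD4 and 2 with a control antibody. In CUT&Tag an antibody tethers a transposase to chromatin, which cuts and tags the DNA around the bound protein. All 4 samples are from wild-type animals by the series' design text, with no treatment or age given, and the labels give the control antibody as a rabbit antibody against mouse IgG coupled to horseradish peroxidase. The protocol in the labels starts from whole digested testes and describes no step that sets spermatogonial cells apart. The list is a single call of CHD4 over IgG with no value for any sample, so no value below has an error between replicates, and intervals in brackets cover counting error only.

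CHD4 is the motor subunit of NuRD, a complex that shifts nucleosomes and removes acetyl groups from histones. BTG proteins slow proliferation and bring the CCR4-NOT deadenylase to messenger RNAs, whose poly(A) tails it shortens. GADD45 proteins are induced by stress and DNA damage, bind the kinase MAP3K4 upstream of p38, and can hold cells at cell cycle checkpoints. In the step from G1 to S phase, CDK4 and CDK6 bind D-type cyclins and phosphorylate RB, and INK4 inhibitors such as the product of Cdkn2b block that kinase activity. Spermatogonial stem cells balance self-renewing divisions against differentiation and survival through the same general machinery.

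The 300 bases around each start (250 before and 50 after, RefSeq, GRCm38.p6) were found for all 6 genes. No interval of the list overlapped any of these windows, while 462 of 32817 such windows over all genes (1.41%) were overlapped. Cdkn2b is shown because its interval began 28 bases beyond the window, Btg2 because its interval had the highest fold of the 7, and the paralogs Gadd45b and Gadd45g because an E-box, a CCAAT box and a TATA motif stand in the same order in both. The last line is the longer of 2 stretches of the Btg3 interval that fall in RefSeq windows, since Btg3, a relative of Btg1 and Btg2, had its interval at its start. Each is written 5′ to 3′ on the gene's strand, and capitals mark every match to the motifs named after them.
Cdkn2b, chr4:89310983-89311282, minus strand: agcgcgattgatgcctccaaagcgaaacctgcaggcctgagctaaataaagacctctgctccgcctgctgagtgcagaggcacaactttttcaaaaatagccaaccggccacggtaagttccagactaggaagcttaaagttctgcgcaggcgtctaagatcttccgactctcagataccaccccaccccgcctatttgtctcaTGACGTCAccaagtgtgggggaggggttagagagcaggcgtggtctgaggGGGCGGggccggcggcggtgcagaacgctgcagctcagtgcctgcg
Btg2, chr1:134079106-134079405, minus strand: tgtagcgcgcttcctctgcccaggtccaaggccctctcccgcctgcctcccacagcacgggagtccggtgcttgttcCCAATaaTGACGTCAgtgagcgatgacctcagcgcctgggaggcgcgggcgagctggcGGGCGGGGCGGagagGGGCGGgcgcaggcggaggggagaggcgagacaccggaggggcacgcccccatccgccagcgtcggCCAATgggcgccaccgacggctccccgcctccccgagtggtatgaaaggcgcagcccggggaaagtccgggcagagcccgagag
Gadd45b, chr10:80929841-80930140, plus strand: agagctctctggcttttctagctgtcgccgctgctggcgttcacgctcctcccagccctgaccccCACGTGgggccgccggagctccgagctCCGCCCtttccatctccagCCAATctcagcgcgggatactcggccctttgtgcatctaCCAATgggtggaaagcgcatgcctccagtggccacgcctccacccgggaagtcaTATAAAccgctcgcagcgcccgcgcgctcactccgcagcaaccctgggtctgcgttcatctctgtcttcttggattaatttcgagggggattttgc
Gadd45g, chr13:51846425-51846724, plus strand: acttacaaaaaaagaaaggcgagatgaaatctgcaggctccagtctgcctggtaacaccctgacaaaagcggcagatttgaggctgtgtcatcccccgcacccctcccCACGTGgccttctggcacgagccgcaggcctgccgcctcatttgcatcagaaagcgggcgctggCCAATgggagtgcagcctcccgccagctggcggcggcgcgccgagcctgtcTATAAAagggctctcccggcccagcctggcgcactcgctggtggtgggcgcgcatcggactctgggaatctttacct
Btg3 interval, chr16:78376894-78377060, minus strand: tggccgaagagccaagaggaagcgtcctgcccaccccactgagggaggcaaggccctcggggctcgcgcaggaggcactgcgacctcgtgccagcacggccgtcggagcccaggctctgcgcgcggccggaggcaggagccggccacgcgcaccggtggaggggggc

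The motifs were searched on both strands of the 6 windows and of all 32817 windows. TGACGTCA, the cyclic AMP response element, stood in 2 of the 6, at 166 bases before the start of Btg2 and 46 before that of Cdkn2b, and in 1.8% of all windows. The E-box CACGTG stood in 3 of the 6 (Gadd45b, Gadd45g and Cdk6) and in 7.1% of all. TATAAA stood in 4 of the 6 and in 13.6% of all, at 46 bases before the start of Gadd45b, 27 before Gadd45g, 26 before Btg1 and 103 before Cdk6. In Gadd45b and in Gadd45g the E-box lay farthest before the start, then CCAAT and then TATAAA, and in Gadd45b a GGGCGG match on the other strand lay just after the E-box. CCAAT stood in 4 of the 6, against 37.4% of all, and GGGCGG in 4 of the 6, against 35.6%. At Btg2 a pair of GGGCGG matches overlapped by 1 base. The AP-1 motif TGANTCA, found in 7.8% of all windows, and the p53 half-site, found in 8.4%, had no match in the 6. The G and C content of the 6 windows ran from 57.7% to 72%, with Btg2 the highest and Cdkn2b the lowest, beside a median of 52.7% over all windows. A match is a run of letters and not a measured binding site.

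Of the 7 intervals, 5 overlapped no RefSeq gene, that of Btg2 lay in a non-coding gene and that of Cdkn2b in Cdkn2b itself. By the authors' annotation 6 of the 7 (85.7%) were distal intergenic, a class that held 457 of all 1849 intervals (24.7%). By the authors' distances only the Cdkn2b interval lay within 1 kb of a transcript start, as did 631 intervals of the list (34.1%), and none of the 7 contained a start. For the Btg2 interval that distance is to Btg2 and not to the start of the non-coding gene that contains it. Of the 1329 protein-coding genes named in the list, 559 (42.1%) had an interval within 1 kb of a start. The distances of the 6 distal intervals to the start they were named for had a median of 10.3 kb and ran from 3.79 to 189 kb, beside a median of 26.2 kb over the 457 distal intervals. Upstream of the start lay 2 of the 7 (Btg2 and Cdk6) and downstream 5. The genes were picked with these values known, so the shares are descriptions and were not tested.

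**Figure D1:**
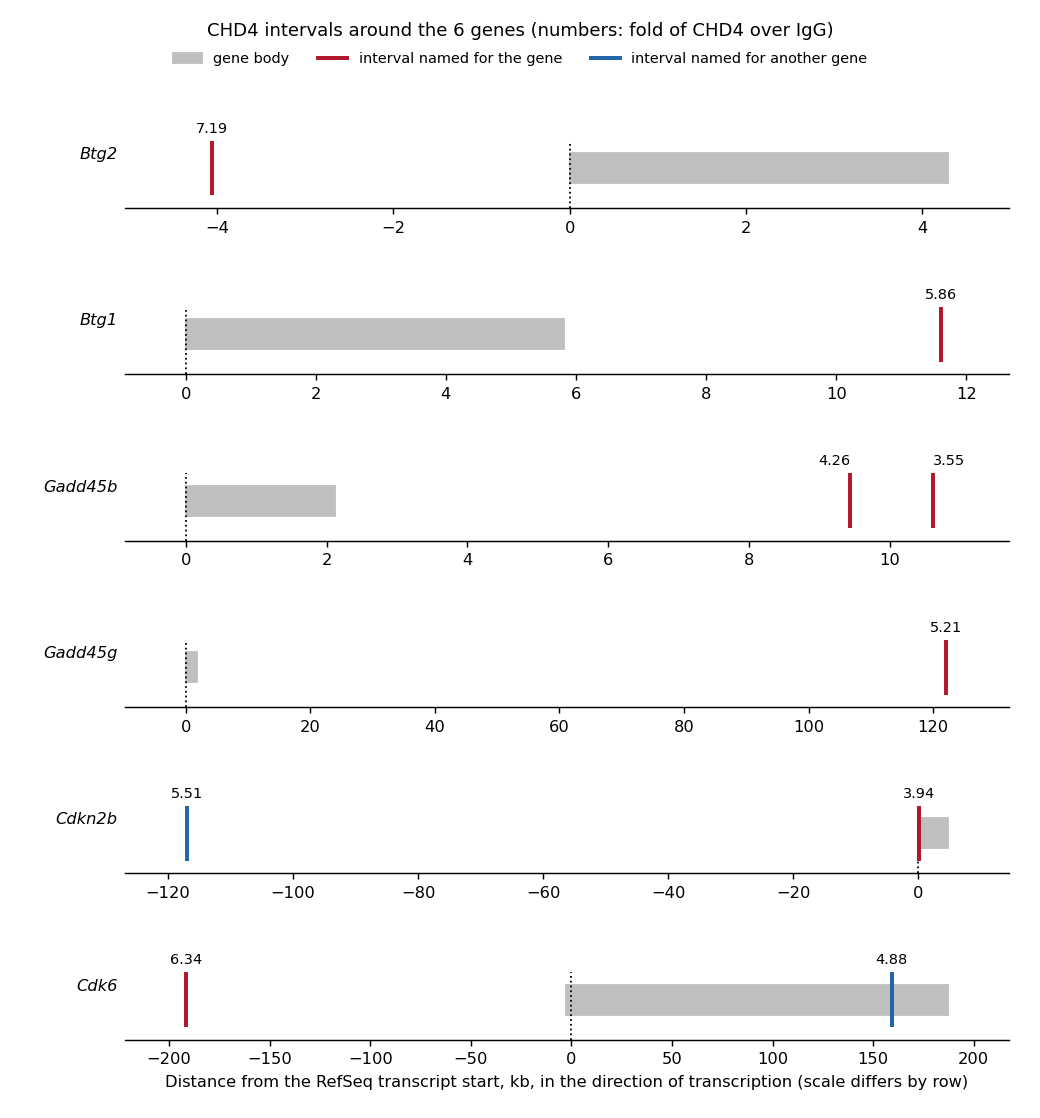
Position of the CHD4 intervals (vertical lines) relative to the RefSeq start of each gene (dotted line, 0 kb) in the direction of transcription, with the gene body in grey and the fold of CHD4 over IgG above each interval; the horizontal scale differs by row. Intervals named for the gene are red, and 2 named for another gene are blue, at 117 kb from Cdkn2b and inside Cdk6; an interval named for Dot1l, 178 kb upstream of Gadd45b, is left off.

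Btg2, which is induced early after growth factor and p53 signals, had the interval with the highest fold of the 7. It spanned 600 bases at chr1:134082909-134083508, and its near edge lay 3.75 kb upstream of the RefSeq start of Btg2. Its summit held 48 CHD4 fragments (95% Poisson interval 35.4 to 63.6), or 20.6 once scaled to the depth of the IgG library, against an IgG expectation of 2. The fold, which is the peak caller's scaled CHD4 fragments plus 1 over the IgG expectation plus 1, was 7.19 (5.39 to 9.43), rank 128 of 1849. The caller's q was 1.03e-09. The interval lay wholly inside Gm31974, a long non-coding RNA gene of 2.16 kb at chr1:134082456-134084610, and the next protein-coding gene on that side, Chit1, was 27.7 kb away. Both ends of Gm31974 were nearer to the interval than the Btg2 start, so the start of Btg2 was not the nearest. The nearest other interval of the list was 952 kb away.

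Btg1, the close paralog of Btg2, had a weaker and narrower interval on the other side of the gene. It spanned 219 bases at chr10:96628500-96628718, 11.5 kb downstream of the RefSeq start and 5.69 kb past the end of the gene. The summit held 29 CHD4 fragments (19.4 to 41.7), 12.4 at IgG depth, against an IgG expectation of 1.29. The fold was 5.86 (4.07 to 8.23) with q = 3.69e-05, and its counting interval overlapped that of Btg2. The interval overlapped no gene, and the nearest feature on its far side, the non-coding gene Gm33897, began 87.0 kb away.

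Among the other BTG and TOB genes, Btg3, which also slows proliferation, was named and Btg4, Tob1 and Tob2 were not, so 3 of the 6 genes of this family had an interval. Over all protein-coding genes 1329 of 21779, or 6.1%, were named, and 2 of the 3 here are there by the choice of genes. The Btg3 interval, at chr16:78376894-78377193, was the only interval of the family over a start. Its fold was 5.42 from 22 CHD4 fragments (13.8 to 33.3), 9.43 at IgG depth, against an IgG expectation of 0.923. The printed stretch of that interval was 75.4% G and C and held none of the motifs searched. Of the 11 genes of the CCR4-NOT deadenylase and the arginine methyltransferase PRMT1, which BTG proteins bind, 3 were named, all at their promoters: Cnot1, the scaffold of the complex, with a fold of 6.33, Cnot2 with 4.36 and Cnot3 with 2.35. The Cnot3 interval had 88 CHD4 fragments, 37.7 at IgG depth, but also an IgG expectation of 15.5. Within 1 kb of a start 2.57% of all protein-coding genes were named. With a q under 0.01 Cnot2 was left out and 2 of the 11 were named, beside 4.8% of all protein-coding genes.

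Gadd45b was the only 1 of the 6 genes with more than 1 interval, and these held the most CHD4 fragments of the 7. They lay 473 bases apart in the sequence between Gadd45b and Gng7, a G protein subunit gene, and overlapped no gene. The first, at chr10:80939052-80940010, was 959 bases wide, rank 21 of 1849 by width, began 6.85 kb past the end of Gadd45b and ended 8.61 kb before Gng7. It held 4 summits, as 5 of the 1849 intervals held 4 or more, and was the only 1 of the 457 distal intervals to do so. At 69, 400, 475 and 600 bases from its left edge these summits had 31, 57, 59 and 64 CHD4 fragments and folds of 3.61, 4.25, 4.26 and 4.06. The IgG expectation climbed along the same summits, at 2.95, 4.98, 5.17 and 6 fragments.

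The next interval, at chr10:80940484-80940917, had 97 CHD4 fragments (78.7 to 118), 41.6 at IgG depth, against an IgG expectation of 11. This was the most fragments of the 7 and rank 41 of 1849, yet its fold of 3.55 (2.89 to 4.31) was the lowest of the 7 and rank 1606. Its q was 8.08e-08. The IgG expectation of 11 was the highest of the 7 and stood beside a median of 1.31 over all intervals. As this expectation plus 1 is the denominator of the fold, a high fragment number went with a low fold here. Why the expectation was high was not tested. Of the 1849 intervals, 32 (1.7%) had another within 500 bases.

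Gadd45g, a paralog that also binds MAP3K4, had 1 interval far from its start. It spanned 498 bases at chr13:51968545-51969042, 122 kb downstream of the start, in a stretch with no annotated gene for 120 kb towards Gadd45g and 114 kb on the other side, where the non-coding gene Gm40948 lies. By RefSeq starts the nearest was that of Gm40948 and not that of Gadd45g. The summit held 30 CHD4 fragments (20.2 to 42.8), 12.9 at IgG depth, against an IgG expectation of 1.66, with a fold of 5.21 (3.64 to 7.28) and q = 4.16e-04. Gadd45a, the third paralog, was not named, nor were Map3k4, Map2k3, Map2k6 and Mapk14 of the p38 pathway, so 2 of 7 genes of this group had an interval, and the choice of genes put both there. None of the 5 others was named, beside 6.1% of all protein-coding genes.

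**Figure D2:**
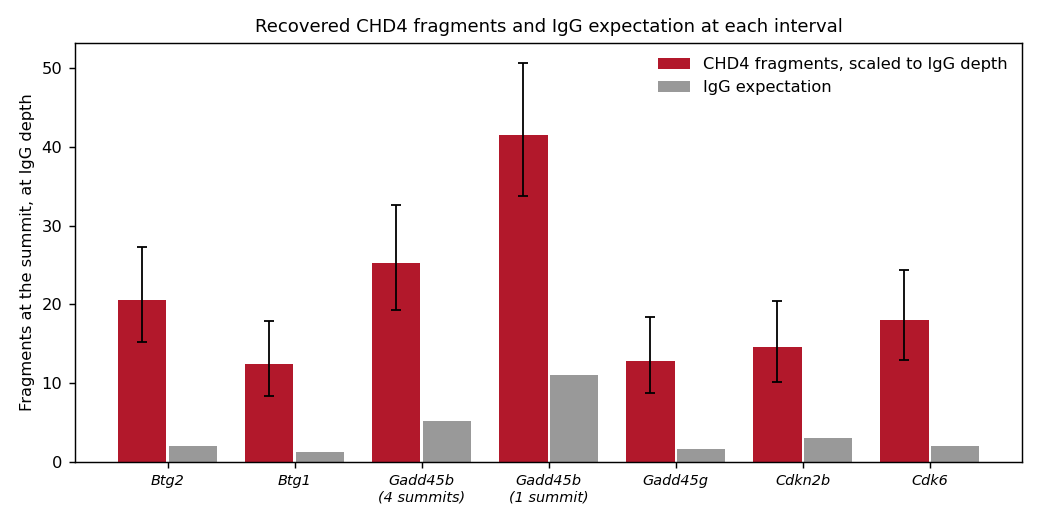
CHD4 fragments at the summit of highest fold of each interval, scaled to the depth of the IgG library (red, with 95% Poisson intervals), and the IgG expectation at the same summit (grey), in fragments. The Gadd45b interval with 1 summit has the tallest bars of both kinds, 41.6 for CHD4 and 11 for IgG, and the Btg1 interval the shortest, 12.4 and 1.29.

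Cdkn2b encodes an INK4 inhibitor of CDK4 and CDK6, and its interval was the only 1 of the 7 inside the gene it was named for. It spanned 190 bases at chr4:89310765-89310954, from 78 to 267 bases downstream of the RefSeq start. The summit held 34 CHD4 fragments (23.6 to 47.5), 14.6 at IgG depth, against an IgG expectation of 2.95, with a fold of 3.94 (2.81 to 5.41), rank 1433 of 1849. The q was 4.67e-03, the weakest of the 7, and the width was rank 1757 of 1849. The long non-coding RNA gene Gm12610 spans 223 kb here and contains Cdkn2b, so the interval lay in both genes. The only other interval of the list within 200 kb of the Cdkn2b start, at chr4:89427816-89428211, was named for Gm12610 and lay 117 kb upstream of Cdkn2b. It had a fold of 5.51 (3.59 to 8.19) from 20 CHD4 fragments, 8.57 at IgG depth, against an IgG expectation of 0.738.

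The neighbouring inhibitor gene Cdkn2a lay 16.1 kb from the Cdkn2b interval and was not named. Nor were Cdkn1a, Cdkn1b, Cdkn1c, Cdkn2c and Cdkn2d, so 1 of 7 CDK inhibitor genes had an interval. That 1 is there by the choice of genes, and none of the other 6 was named, beside 6.1% of all protein-coding genes.

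Cdk6 encodes the kinase that the Cdkn2b product inhibits, and the interval named for it was the most distant of the 7. It spanned 379 bases at chr5:3152206-3152584, 191 kb upstream of the RefSeq start. The nearest annotated features were the pseudogenes Gm3053 and Gm18985, at 56.9 and 60.4 kb, and by RefSeq starts the nearest was that of the non-coding gene Gm36470 and not that of Cdk6. The summit held 42 CHD4 fragments (30.3 to 56.8), 18 at IgG depth, against an IgG expectation of 2, with a fold of 6.34 (4.66 to 8.45) and q = 6.42e-08. This was the next highest fold of the 7 after Btg2.

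Another interval lay inside Cdk6 itself but was named for Fam133b, whose start is nearer. It was at chr5:3502862-3503225 in intron 5 of 7 of Cdk6, 159 kb downstream of the Cdk6 start and 40.6 kb from the start of Fam133b. It was thin, with 13 CHD4 fragments (6.92 to 22.2), 5.57 at IgG depth, against an IgG expectation of 0.346, the floor that 131 of the 2066 summits shared, and a fold of 4.88 (2.95 to 7.83) with q = 1.15e-02. Of the 452 intronic intervals whose host gene has a numeric identifier, 82 (18.1%) were likewise named for a gene other than their host. Besides Cdkn2b and Cdk6, the other 4 genes had no interval in their bodies. Of the 19 genes of the cyclin-dependent kinase family Cdk6 alone was named, by the choice of genes, and 0 of the 18 others. Beside 6.1% of all protein-coding genes, none of 11 cell cycle cyclin genes was named, and of 13 RB and E2F genes 1 was, E2f6, a repressor of E2F targets, with a fold of 3.73 at 29.5 kb.

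**Figure D3:**
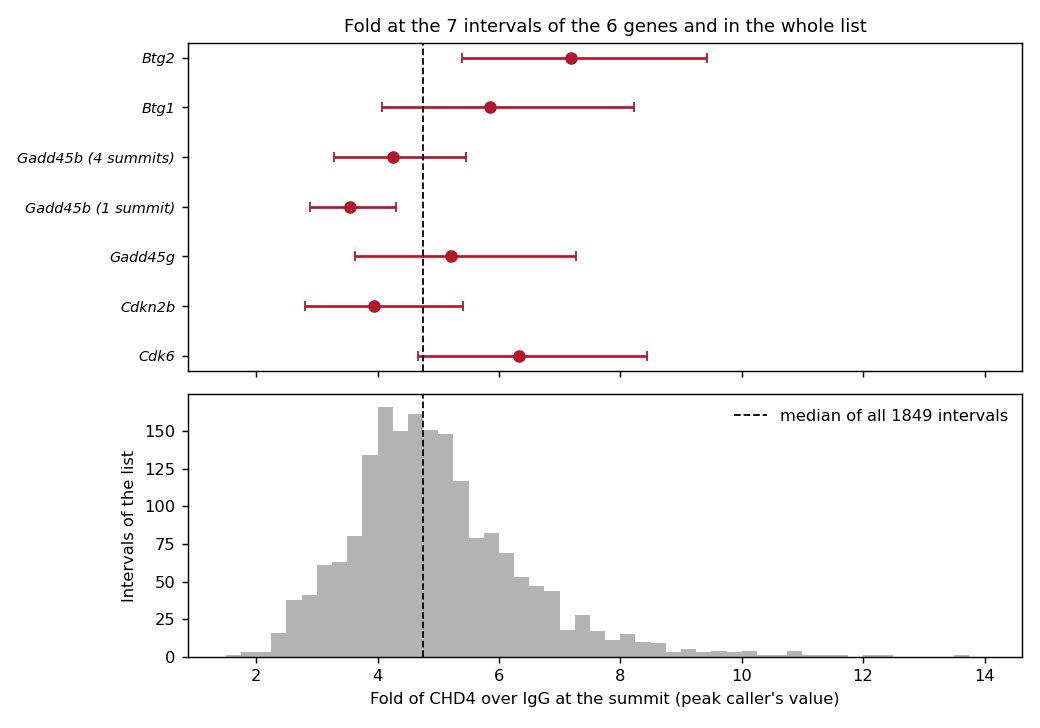
Fold of CHD4 over IgG at the 7 intervals (top, points with 95% counting intervals) above the distribution of fold over all 1849 intervals in steps of 0.25 (bottom), with the median of the list, 4.76, dashed. Btg2 has the highest point at 7.19 and its counting interval lies above the median, while the single-summit Gadd45b interval at 3.55 lies below it.

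Set against the whole list, the 7 intervals spread over both sides of the median fold. Their median was 5.21, with a range from 3.55 to 7.19, and 4 of the 7 were at or above the list median of 4.76. By fragments they had a median of 42, against 27 over the list, and by width a median of 434 bases, against 280. Their median IgG expectation was 2 fragments, against 1.31. Each of the 7 had at least 29 CHD4 fragments, and all 7 passed a q of 0.01 at the summit of highest fold, as did 1430 of the 1849 intervals (77.3%). Fold, fragments and q belong to the contrast by which the genes were chosen, so no test was made of these differences.

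Over 7 lists of growth arrest and cell cycle genes (BTG and TOB, CCR4-NOT and PRMT1, GADD45 and p38, CDK inhibitors, CDKs, cyclins, RB and E2F), 11 of 74 genes were named. Without the 6 chosen genes these were 5 of 68, or 7.35%, near the 6.1% of all protein-coding genes. The 5 were Btg3, Cnot1, Cnot2, Cnot3 and E2f6, and 1 of their 5 intervals was distal. The 3 Cnot genes came from the list of 11 CCR4-NOT and PRMT1 genes, partners of BTG proteins. Without that list only Btg3 and E2f6 remained, and only Btg3 within 1 kb of a start. By intervals within 1 kb of a start 4 of these 68 were named (Btg3 and the 3 Cnot genes), or 5.88%, against 2.57% of all protein-coding genes. Within 10 kb they were the same 4 genes, against 4.05% of all. With a q under 0.01 they were 3 of 68 (Btg3, Cnot1 and Cnot3), or 4.41%, against 4.8% of all. Of 19 genes for p53 and its targets 5 were named, or 4 of 18 without Btg2 (22.2%, beside 6.1% of all): at their promoters, Bax and Bbc3, which promote apoptosis, Sesn1, a stress sensor, and Plk2, a kinase, with folds of 4.62, 3.97, 2.77 and 3.57. All 4 lay within 1 kb of a start, where 2.57% of all protein-coding genes were named, and all 4 folds were below the list median of 4.76. This list too was written with earlier results of these data known, so the share was not tested.

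**Figure D4:**
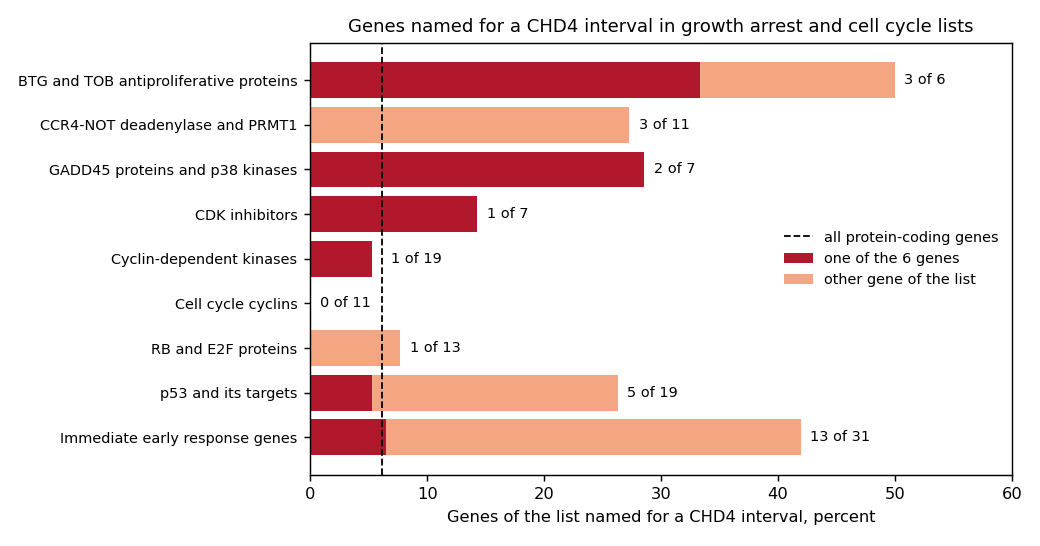
Percent of the genes of each list named for a CHD4 interval, split into the 6 chosen genes (red) and other genes (orange), with the count beside each bar and the share of all protein-coding genes (6.1%) dashed. The bars of CDKs and cyclins, at 1 of 19 and 0 of 11, end below the dashed line, and the red parts follow from the choice of genes.

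The list gives positions and no expression, so the spermatogonial label could not be checked by transcript level. The marker counts that follow stand beside 6.1% of all protein-coding genes and were not tested. Of 13 spermatogonial markers 1 was named (Nanos3, fold 3.40 at 6.80 kb), and of 6 spermatid markers 1 (Odf1, fold 4.98 at 34.7 kb). Of 8 Sertoli cell markers 2 were named: Gata4, with folds of 3.54 at its promoter and 5.74 at 8.51 kb, and Kitl, with 6.50 at 108 kb. Of 8 markers of myoid, endothelial and macrophage cells 3 were named, all by distal intervals: Acta2 (fold 5.61), Cdh5 (4.57) and Kdr (7.73). None of 6 Leydig cell markers was named. Which cells contributed the fragments at the 6 genes was not tested.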

How the data were processed

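CUT&Tag samples with antibodies against CHD4 (2) and IgG (2) were compared in 1 peak list. The submitters' processing notes name MACS2 2.1.2, Bowtie2 2.2.5, Trim Galore 0.5.0 and the build mm10, with no word on how replicates and duplicate reads were handled. Per the file headers the authors deposited a fold (ratio) of CHD4 over IgG and its log2. The deposited −log10 p and −log10 q have lost their headers and were read in the caller's column order, and the deposited score is the −log10 q multiplied by 10 and cut to a whole number. Gene names, classes and distances to starts are the authors'.

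Rows with the same chromosome, start and end were collapsed into an interval, which took the values of its summit of highest fold. Fragments were recovered from fold and −log10 p as whole numbers: a CHD4 scale of 0.429 solved all 2066 summits within 0.0005. Scales from 0.2 to 1 were first screened on 6 sampled summits. Close neighbours of 0.429 and its integer fractions, which only multiply the fragments, were set aside. No other scale that passed the screen solved any summit of a larger sample. The CHD4 library is then 2.33 times as deep as the IgG library. The recovery was also run on data simulated by the same formula, at another scale and with IgG expectations below the highest of the list. This checks the arithmetic and not the formula itself. Intervals are 95% Poisson and hold the IgG expectation fixed. Gene positions and windows are from RefSeq GRCm38.p6, with 21779 protein-coding genes. The text names each of the 6 genes with all its intervals, every listed gene that has an interval, and genes that neighbour or overlap these intervals. The genes and lists were chosen with earlier results of these data known. No value per sample exists, so no test between samples was made. Python 3.11.15, pandas 2.3.3 and scipy 1.17.1 were used.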

Additional observations from a re-analysis of the deposited data

How the results depend on the processing

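The number of intervals given to the 6 genes was 7. It stayed 7 with a q under 0.01, was 10 with summits as the unit and 5 by overlap with the gene or a gap of at most 10 kb, which leaves out Gadd45g and Cdk6. With only folds at or above the list median it was 4, which leaves out both Gadd45b intervals and Cdkn2b. By the authors' distances the count within 1 kb of a transcript start was 1. It stayed 1 within 3 kb and with a q under 0.01, and was 0 when the interval had to contain the start. The median fold of 5.21 did not move with the summit of lowest q or a q under 0.01. With no count added to the ratio it was 7.74, beside 7.72 for the whole list. Of the genes of the 7 growth arrest and cell cycle lists, 11 were named, 9 with a q under 0.01, 7 within 10 kb of a start and 5 within 1 kb; without the 6 chosen genes these were 5, 3, 4 and 4 of 68. No paired analysis was possible because the list holds no value per sample, and for the same reason no replicate could be left out. Depth limits the thinnest intervals described, with 12 CHD4 fragments at Cdh5 and 13 each at Fos and inside Cdk6.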

Other observations

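Immediate early response genes, which are switched on within minutes of a stimulus and include Btg2 and Gadd45b, were named in 13 of 31 cases. Without those 2 genes they were 11 of 29, or 37.9%, beside 6.1% of all protein-coding genes; the list was written with earlier results of these data known, so the share was not tested. Of the 15 intervals of the other 11 genes, 7 were distal intergenic and 2 lay within 1 kb of a start. Among them the AP-1 genes Jund, Junb, Jun, Fosb and Fos were named, Jun only by an intronic interval 53.2 kb upstream of its start. Within 10 kb of a start 11 of the 31 genes were named, Btg2 and Gadd45b included, beside 4.05% of all protein-coding genes. The Jund interval lay 3.79 kb downstream of the start with a fold of 5.53 from 51 CHD4 fragments, and that of Fos lay 22.9 kb downstream with a fold of 4.80 from 13 (6.92 to 22.2). Zfp36l1, an RNA-binding protein that promotes decay of messenger RNAs, had an interval 1.42 kb upstream with a fold of 6.05 from 40 fragments (28.6 to 54.5). Ier3, a stress-response gene, had intervals 8.12 and 1.60 kb upstream, the farther with 59 fragments and a fold of 3.81. Dusp1, Klf6, Socs3 and Zfp36 were also named, with folds from 3.16 at Zfp36 to 6.29 at the intronic interval named for Klf6. That interval lay 145 kb from the Klf6 start, and the others named for Klf6 were distal, at 6.6 and 328.5 kb.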
